A study of Mus musculus with 6 samples.

Results

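The cytosolic ribosomal protein genes were examined in whole testes that lack Prss37 and in testes of wild-type mice. Genes were taken by name: Rpsa and every array gene called Rpl, Rps or Rplp followed by a number and an optional a, l or x suffix. This rule found 82 genes, carried by 141 probes and 150 spots, among 27342 gene names on the array. By role they were 43 proteins of the large subunit, 31 of the small subunit, 3 of the ribosomal stalk and 5 paralogues (Rpl39l, Rpl3l, Rpl22l1, Rpl7l1 and Rps27l). Rpl10l, the testis paralogue of Rpl10, was not analysed here because 0 probes carried that name.

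Total RNA came from testes of Prss37-/- mice (n = 3) and of wild-type mice (n = 3), all male C57BL/6 animals 6 to 8 weeks old. Prss37 encodes a serine protease family member of developing sperm cells. Each sample was hybridised to 1 single-colour Agilent mouse array, so 6 arrays limit the precision of every value. One label of the knockout samples, their description, reads Prss55 in place of the Prss37 of their titles, which were used for grouping.

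Ribosomal proteins bind ribosomal RNA to build the small subunit, which decodes mRNA, and the large subunit, which joins amino acids. Most are made in fixed proportion to each other, and their mRNAs typically start with a run of pyrimidines, the TOP motif, through which growth signals acting on mTOR control their translation. Several are encoded on the X chromosome, which is silenced in meiotic male germ cells, and autosomal copies expressed in the testis, such as Rpl39l for Rpl39, are known to take over there.

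Start sites of some paralogues and parents, with and without a run of pyrimidines near the start, are shown so that it can be seen in the sequence. Each line gives 10 bases before the annotated start and 20 bases from it, 5′ to 3′, from RefSeq on GRCm38.p6, and capitals mark a run of at least 6 C or T that reaches within 5 bases of the start. Rps6, a small-subunit protein phosphorylated downstream of mTOR, and Rpl14, the large-subunit gene with one of the widest spreads below, are shown beside them. The marked run of Rpl39l ends before the annotated start, and that of Rpl22l1 begins after the first transcribed base.
Rpl39l (chr16:10170218-10170247, plus strand): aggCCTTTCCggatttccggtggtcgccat
Rpl39 (chrX:37085203-37085232, minus strand): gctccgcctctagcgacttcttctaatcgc
Rpl22l1 (chr3:28805498-28805527, plus strand): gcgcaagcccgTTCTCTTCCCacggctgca
Rpl22 (chr4:152324426-152324455, plus strand): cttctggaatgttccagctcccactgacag
Rps27 (chr3:90213629-90213658, minus strand): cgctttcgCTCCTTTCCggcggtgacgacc
Rps6 (chr4:86857348-86857377, minus strand): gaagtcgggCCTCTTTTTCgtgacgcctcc
Rpl14 (chr9:120571507-120571536, plus strand): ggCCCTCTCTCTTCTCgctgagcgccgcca

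RefSeq start sites were matched for 62 of the 82 genes, with 74 start sites in all. A run of at least 6 pyrimidines near the start was found at 33 of these 74 (44.59%), against 20.19% of all 32851 start sites in the table. A start at C followed by at least 4 pyrimidines was found at 13 of 74 (17.57%), against 2.51% of all. Among paralogues and parents with a start site, Rpl39l, Rpl22l1, Rps27 and 1 of 2 starts of Rps27l had a run of at least 6. Rpl39, Rpl22, Rpl3l, Rpl7l1, Rps4x and Rpl36a had none at their annotated starts. Of those with a run, only Rps27 had a start at C followed by at least 4 pyrimidines. Whether transcripts in testis begin at the annotated starts was not tested, so a run at another start would be missed. In the 300 bases around each start (250 before and 50 after), searched on both strands, CCGGAAG, the core recognised by GABP, was present at 36.49% of the ribosomal protein start sites and 8.86% of all. AAGATGGC, a core of YY1, was present at 10.81% and 2.75%, GGGCGG, a core of Sp1, at 59.46% and 35.66%, and TATAAA, the TATA box, at 9.46% and 13.62%. The first and second of these words can overlap by their shared AAG. These matches describe the sequences and were not linked to any difference between genotypes.

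Values below are levels, meaning the log2 processed signal minus the 75th percentile of the same array, and differences are knockout minus wild type on that log2 scale. All 82 genes were well above background on all 6 arrays and were tested. Of them, 78 had a mean level above the 75th percentile of their array, and 58 were above the 95th percentile on every array. Brightness depends on the probe, so the levels of different genes were not set against each other.

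No ribosomal protein gene passed the test in either direction. In limma, with Benjamini-Hochberg adjustment over 18975 genes and a threshold of 0.05, 0 of 82 were higher in knockout testes and 0 of 82 lower, where 1.21% of all genes were higher (230), 1.25% lower (237) and 2.46% called in either direction. The smallest adjusted p among the 82 was 0.136. At an unadjusted p under 0.05 there were 2 of 82, Rpl10a and Rpsa, against 23.9% of all genes.

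The intervals around the differences were narrow. For 77 of the 82 genes the whole 95% interval lay within 0.3 of 0 on the log2 scale, a 1.23-fold change, and for 57 it lay within 0.2, a 1.15-fold change. Over all genes tested these counts were 11026 and 5911 of 18975. The median half-width was 0.116, and the outermost bounds were -0.57 and 0.34. Spread between replicates was also small: the median SD over the 82 genes was 0.037 among knockout arrays and 0.052 among wild-type arrays (n = 3 each), against 0.054 and 0.086 over all genes. Fewer cells of a type and less RNA per cell cannot be told apart in whole testis.

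**Figure D1:**
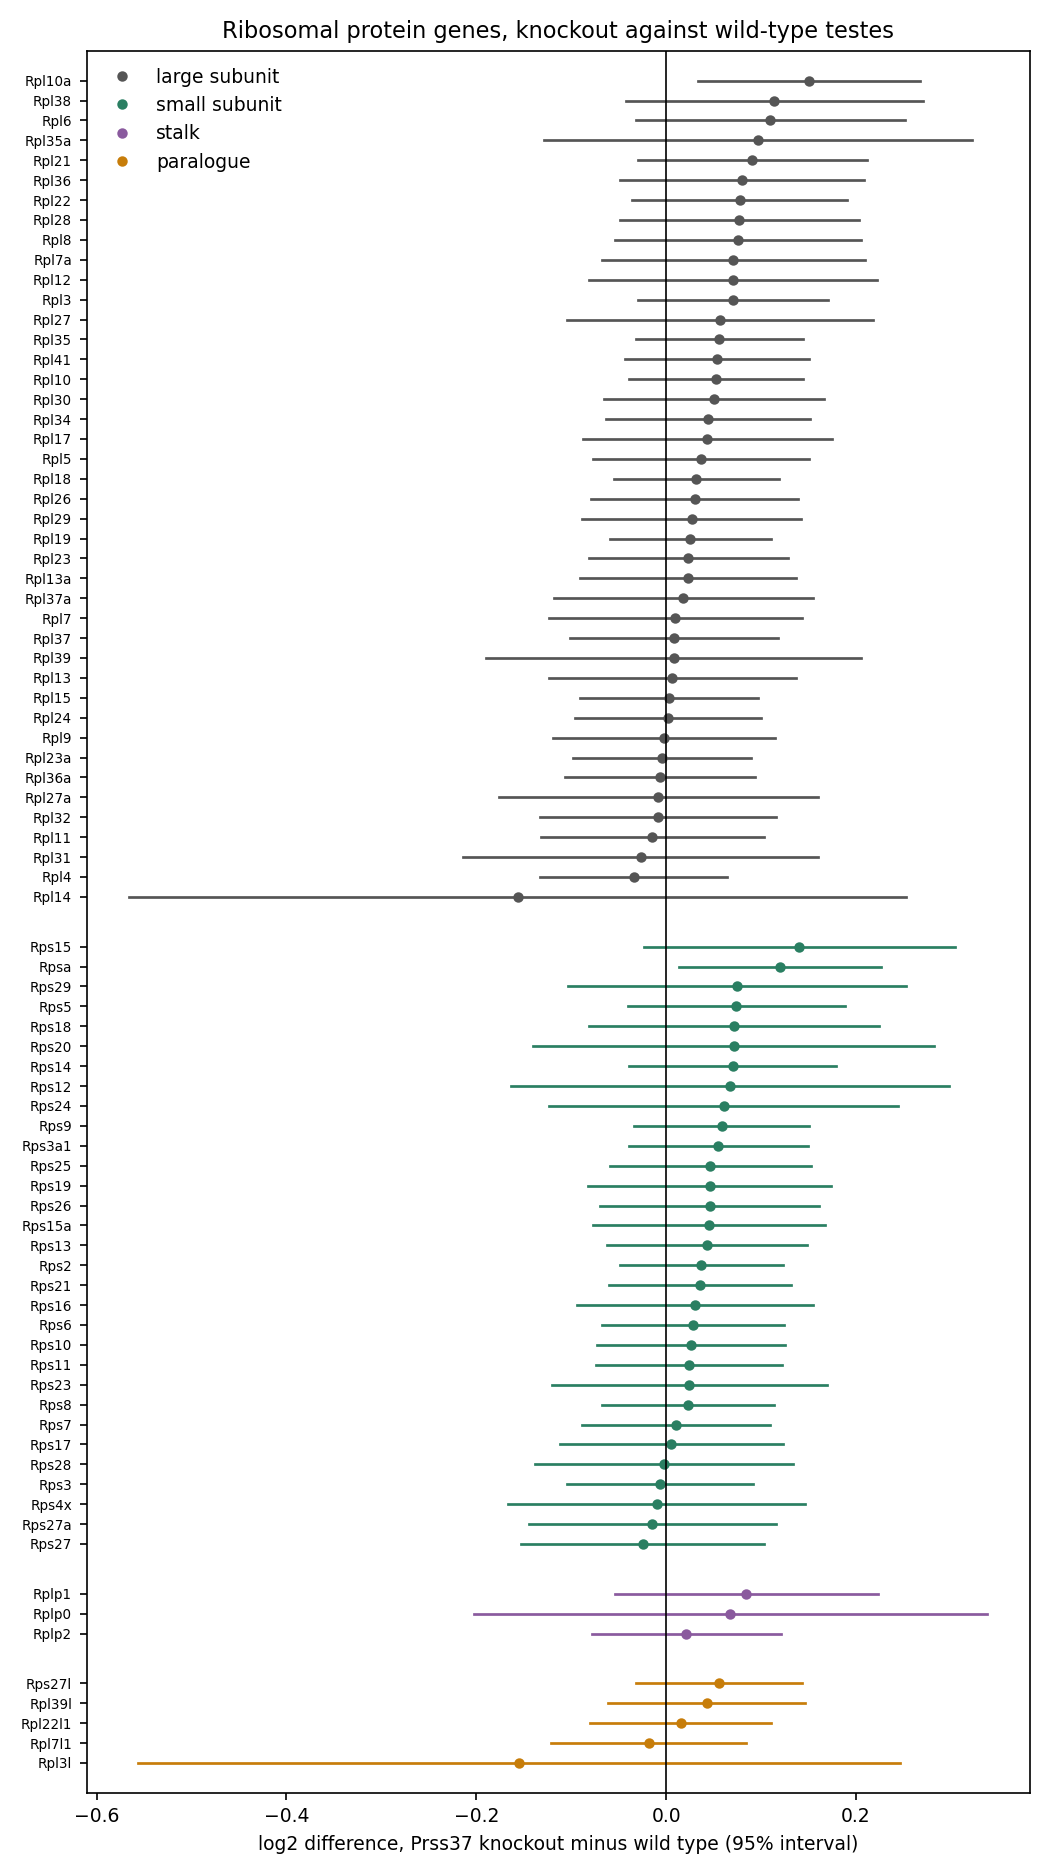
Log2 difference (knockout minus wild type) of the ribosomal protein genes reported here on the x axis, with its 95% interval as a bar, grouped by role down the page. All but 2 intervals, those of Rpl10a and Rpsa, include 0, and Rpl14 and Rpl3l have the widest.

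Among large-subunit proteins, Rpl10a had the smallest p of the 82. Rpl10a forms a mobile stalk beside the tRNA exit site, and tagged Rpl10a is used in mice to purify the ribosomes of chosen cells. Its levels were 2.75, 2.67 and 2.71 in knockout testes, against 2.57, 2.49 and 2.61 in wild-type testes. Every knockout array was above every wild-type array. The difference was 0.15 (SE 0.048, 1.11-fold; limma adjusted p = 0.136), so it did not pass the test, and it was 0.18 within slide 1 and 0.099 within slide 2. Its only probe, printed because the smallest p of the group rests on it, matches NM_011287 and spans chr17:28466425-28467486 of mm9 in the array annotation, more than its own 60 bases.
Rpl10a probe: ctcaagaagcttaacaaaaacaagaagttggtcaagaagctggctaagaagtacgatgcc

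Other large-subunit proteins had larger p-values. Rpl6 had levels of 4.39, 4.32 and 4.35 in knockout testes, against 4.25, 4.14 and 4.33 in wild-type testes, and Rpl21 had 1.42, 1.45 and 1.54 in knockout testes, against 1.34, 1.43 and 1.36 in wild-type testes. Both sets of groups overlapped, with differences of 0.11 (limma adjusted p = 0.311) and 0.091 (limma adjusted p = 0.324). With the mean of its probes Rpl21 was at -0.074. Over the 43 large-subunit genes 34 differences were above 0, with a median of 0.032.

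The negative differences were few and mostly close to 0. Rpl14 had levels of -1.84, -1.81 and -2.06 in knockout testes, against -1.42, -1.75 and -2.06 in wild-type testes. The groups overlapped, and replicate 3 was the lowest array in both. The difference was -0.16 (SE 0.17; limma adjusted p = 0.619). It was -0.24 within slide 1 and 0.0088 within slide 2, and 0.0053 when wild-type replicate 1 was left out. Rpl4 differed by -0.034, Rpl31 by -0.027 and the small-subunit gene Rps27 by -0.025, with adjusted p-values of 0.661, 0.866 and 0.813 by limma. Rpl4 and the paralogue Rpl7l1 were the only genes of the 82 whose difference stayed below 0 when each array in turn was left out, whereas 47 stayed above 0.

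Among small-subunit proteins, 26 of 31 differences were above 0, with a median of 0.043. Rpsa, which is a subunit protein near the mRNA exit and is also described as a laminin receptor, had levels of 2.47, 2.43 and 2.41 in knockout testes, against 2.29, 2.29 and 2.37 in wild-type testes. The groups did not overlap. The difference was 0.12 (SE 0.043, 1.09-fold; limma adjusted p = 0.171), 0.16 within slide 1 and 0.040 within slide 2. Rps15, a protein near the decoding site, had levels of 3.62, 3.55 and 3.57 in knockout testes, against 3.43, 3.33 and 3.56 in wild-type testes. The groups overlapped at wild-type replicate 3, and the difference was 0.14 (SE 0.067; limma adjusted p = 0.267).

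The stalk proteins recruit translation factors to the large subunit. Rplp0, its base, had levels of 7.03, 7.22 and 7.20 in knockout testes, against 7.17, 6.86 and 7.22 in wild-type testes. Wild-type replicate 2 stood below the other 5 arrays. The differences of Rplp0, Rplp1 and Rplp2 were 0.068, 0.085 and 0.021, with limma adjusted p-values of 0.755, 0.423 and 0.794. Rplp0 turned negative after quantile normalization (-0.029) but not with normexp (0.043), a background correction that was itself followed by quantile normalization. The further probes of Rplp0 differed by 0.024 and -0.020. Rplp2 turned negative after quantile normalization (-0.026), with normexp (-0.015) and in the deposited table (-0.026). Rack1, a scaffold on the small subunit, differed by 0.086. Fau, which encodes Rps30 fused to a ubiquitin-like domain, differed by 0.12. The value of Fau was 0.043 after quantile normalization, 0.056 with normexp and 0.034 in the deposited table. The adjusted p-values of Rack1 and Fau, both outside the name rule, were 0.512 and 0.251 by limma.

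The paralogues were set beside their parents within each array. Rpl39l had levels of 5.62, 5.69 and 5.66 in knockout testes, against 5.63, 5.64 and 5.57 in wild-type testes, and its difference was 0.043 (SE 0.042; limma adjusted p = 0.592). That small value turned negative with normexp (-0.066), quantile normalization (-0.018) and the deposited table (-0.015). Its X-linked parent Rpl39, a small protein lining the exit tunnel, had levels of 2.69, 2.61 and 2.58 in knockout testes, against 2.72, 2.45 and 2.69 in wild-type testes, a difference of 0.0079 (SE 0.081; limma adjusted p = 0.965). Both pairs of groups overlapped. The log2 ratio of Rpl39l to Rpl39 differed by 0.035 (two-sided exact permutation p = 0.8, adjusted p = 0.9 over 7 pairs). With 3 arrays against 3 an exact permutation test cannot go below p = 0.1.

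Rps27l, which is a paralogue of Rps27 and a p53 target, had levels of 4.33, 4.32 and 4.29 in knockout testes, against 4.26, 4.25 and 4.26 in wild-type testes. Every knockout array was above every wild-type array, and the difference was 0.056 (SE 0.036; limma adjusted p = 0.398). It was 0.011 with normexp, 0.032 after quantile normalization and 0.031 in the deposited table. The ratio of Rps27l to Rps27 differed by 0.081 (exact permutation p = 0.1, adjusted 0.35). The probe for Rps27 lies on chromosome 9 by the array annotation, while the gene is on chromosome 3, and the accession is shared with Rps27rt, so Rps27 is uncertain. Rpl22l1 differed by 0.015 (-0.078 with normexp, -0.021 after quantile normalization and -0.020 in the deposited table). Its parent Rpl22 differed by 0.077 (0.023 with normexp and 0.043 after quantile normalization). The ratio of Rpl22l1 to Rpl22 differed by -0.062 (exact permutation p = 0.1, adjusted 0.35). The second probe of Rpl22l1 gave a difference of 0.17 (unadjusted p = 0.00937 in the limma fit over single probes, adjusted p = 0.107), and with the mean of the probes the ratio difference was 0.011.

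Rpl3l, a paralogue best known from striated muscle, had a signal near the low end of the array scale. Its levels were -5.07, -5.18 and -5.04 in knockout testes, against -5.10, -5.16 and -4.56 in wild-type testes, and wild-type replicate 3 was far above the other 5 arrays. The difference was -0.16 (SE 0.16; limma adjusted p = 0.616), with a value of 0.037 when that array was left out, and its parent Rpl3 differed by 0.070. Rpl7l1 differed by -0.019 and Rpl7 by 0.0096. Another pair of paralogues falls outside the name rule. Rps4l, named Rps4y2 on the array, differed by 0.091 (limma adjusted p = 0.224), against -0.010 for Rps4x, and Rpl36al differed by 0.013 (-0.017 after quantile normalization), against -0.0065 for Rpl36a. The ratio differences of these pairs, and those of Rpl3l and Rpl7l1, had adjusted p-values between 0.7 and 0.9 in exact permutation tests.

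**Figure D2:**
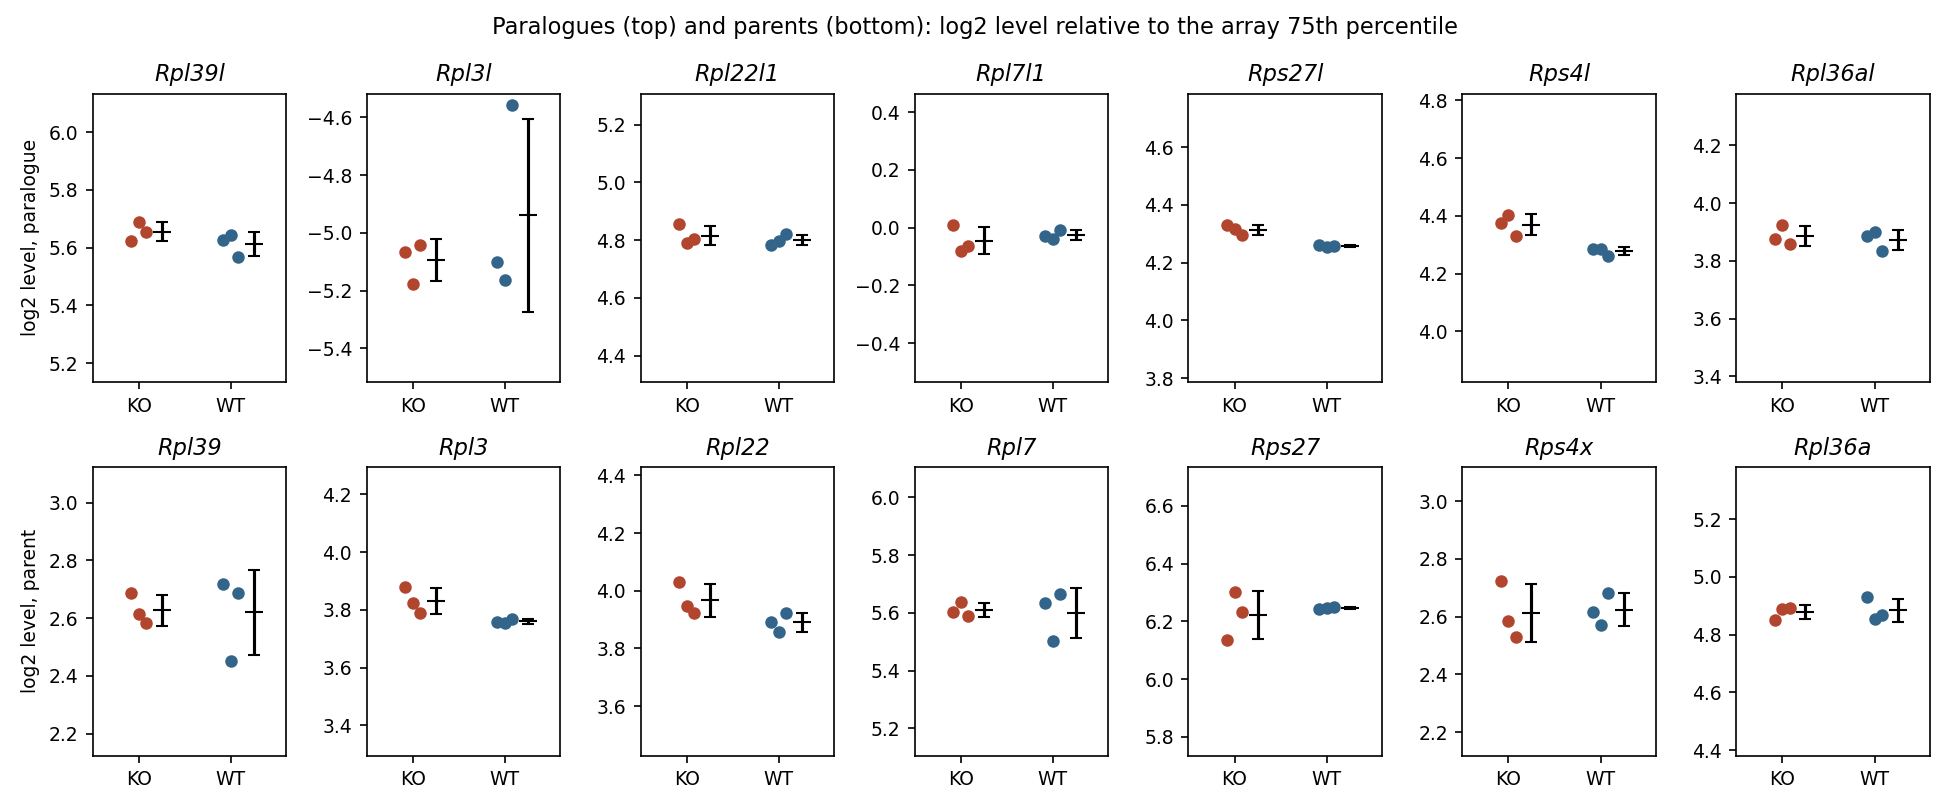
Log2 levels relative to the array's 75th percentile for 7 paralogues (top) and their parents (bottom), with knockout arrays (KO) left of wild-type arrays (WT), the mean as a tick and the SD as a bar. Each panel spans 1 unit, and only the single wild-type value of Rpl3l near -4.56 stands far from its group.

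The X-linked members Rpl10, Rpl39, Rps4x and Rpl36a differed by 0.053, 0.0079, -0.010 and -0.0065. Rpl10, which helps complete the large subunit, had levels of 3.61, 3.58 and 3.55 in knockout testes, against 3.52, 3.53 and 3.52 in wild-type testes, so the groups did not overlap (limma adjusted p = 0.448). Its second probe differed by 0.0070. The probes overlap by 29 bases and differ there at 3 positions, A2T, A15C and A21T, counted from the first base of the overlap with the base of NM_052835 first. Capitals mark those positions. The U89405 probe, which stands for the gene, has no position in the array annotation.
NM_052835 overlap: aAccaagttgcagaAcaaggAacatgtga
U89405 overlap: aTccaagttgcagaCcaaggTacatgtga

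Members with 2 or more tested probes (40 genes, 51 further probes) allowed a check of the brightest probe against the others. The further probe had the same sign in 32 of 51 and lay within 0.1 of the brightest in 43, with a median gap of 0.043. The largest gaps were at dim probes, such as Rpl21 (0.091 against -0.24), Rps9 (0.058 against 0.30) and Rps24 (0.061 against -0.18). At the level of single probes 0 of 133 tested were called and 4 had an unadjusted p under 0.05, against 1.04% and 22.5% of all probes. No gene had probes of opposite sign with one of them at an unadjusted p under 0.05. Of the 141 probes, 8 were not tested, 7 lay off their gene or had no position, and 14 carried accessions shared with another RefSeq gene.

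**Figure D3:**
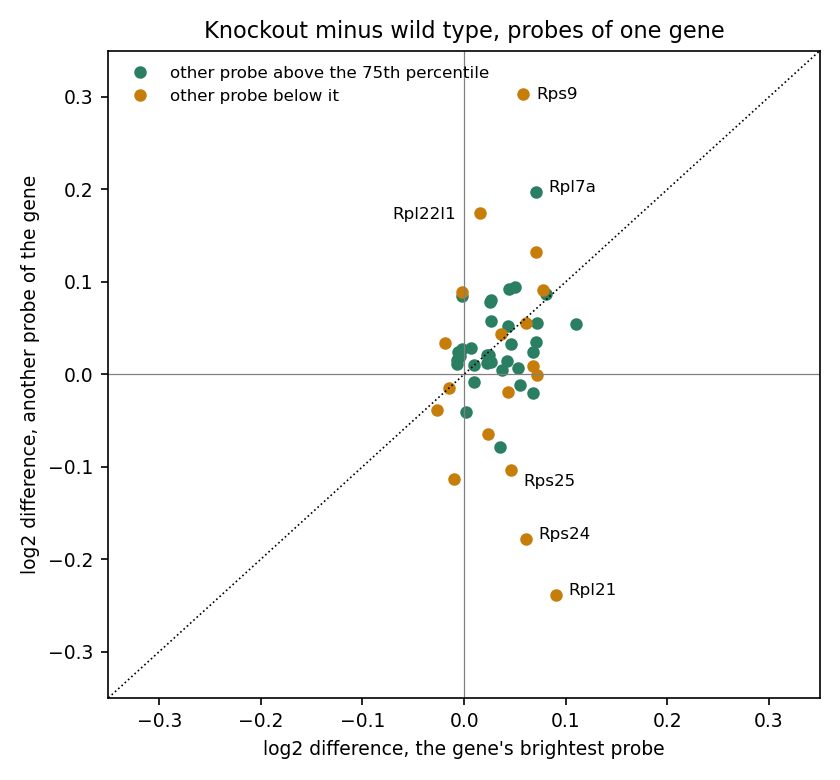
Log2 difference (knockout minus wild type) of the brightest probe of a gene (x axis) against that of another probe of the same gene (y axis), coloured by whether the other probe was above the array's 75th percentile. Most points lie near the dotted line of equality, and Rpl21, Rps24 and Rps9 lie far from it.

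Small positive differences were common: 66 of 82 members (80.49%) were above 0, where 49.3% of all genes were, and the member median was 0.037, against -0.0024 for all genes. Groups failed to overlap with knockout higher in 14 of 82, 17.07%, close to the 15.5% of all genes, and with knockout lower in 0 of 82, against 16% of all genes. This one-sided pattern was kept with median centring, where the member median was 0.041 with 68 of 82 above 0. It was not kept after quantile normalization, where the median was -0.0013 with 39 above 0. With normexp background correction, which was also followed by quantile normalization, the median was -0.0030 with 39 above 0. Background correction was not varied alone.

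The arrays differed in step with this. The median deviation of the members from their own means was 0.011, 0.034 and 0.0016 on knockout arrays 1 to 3, against -0.0017, -0.049 and 0.0019 on wild-type arrays 1 to 3. Wild-type replicate 2 held the lowest value of 45 members and knockout replicate 2 the highest of 35. The 95th percentile of all genes' levels was 4.55, 4.61 and 4.58 on knockout arrays, against 4.55, 4.53 and 4.57 on wild-type arrays, lowest on the same wild-type array and highest on the same knockout array. Its part in the member median was not tested, but without wild-type replicate 2 the median was 0.014 with 55 of 82 above 0. Within slide 1 (replicates 1 and 2) the median was 0.049 with 74 above 0, and within slide 2 (replicate 3) it was 0.0072 with 45. Between the slides 0 members were called in limma, and 0 of all 18975 genes. Of the members, 4 (Rpl31, Rpl14, Rps18 and Rpl3l) had an unadjusted p under 0.05 in limma, against 8.45% of all genes.

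**Figure D4:**
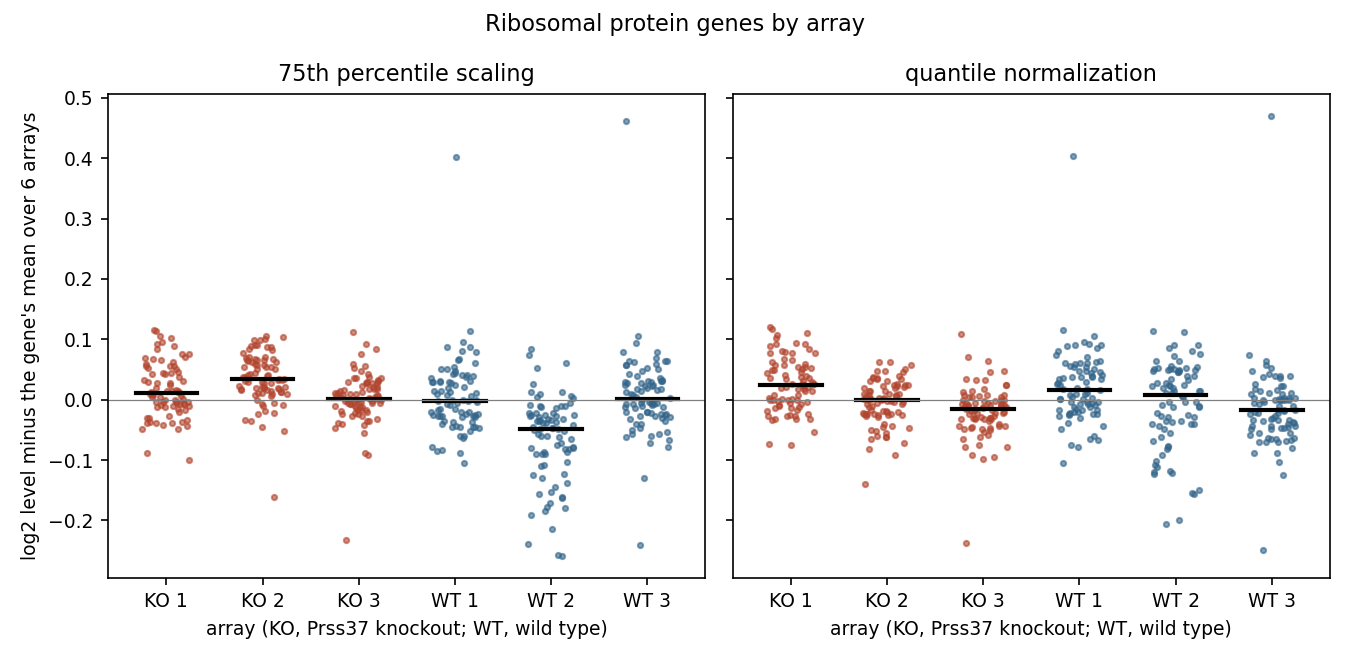
Log2 level of each member minus its mean over 6 arrays (y axis) on each array (x axis), with 75th percentile scaling at left and quantile normalization at right, and a bar at the median. Under the first scaling wild-type array 2 sits lowest at -0.049 and knockout array 2 highest at 0.034, and after quantile normalization all medians lie between -0.018 and 0.025.

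**Figure D5:**
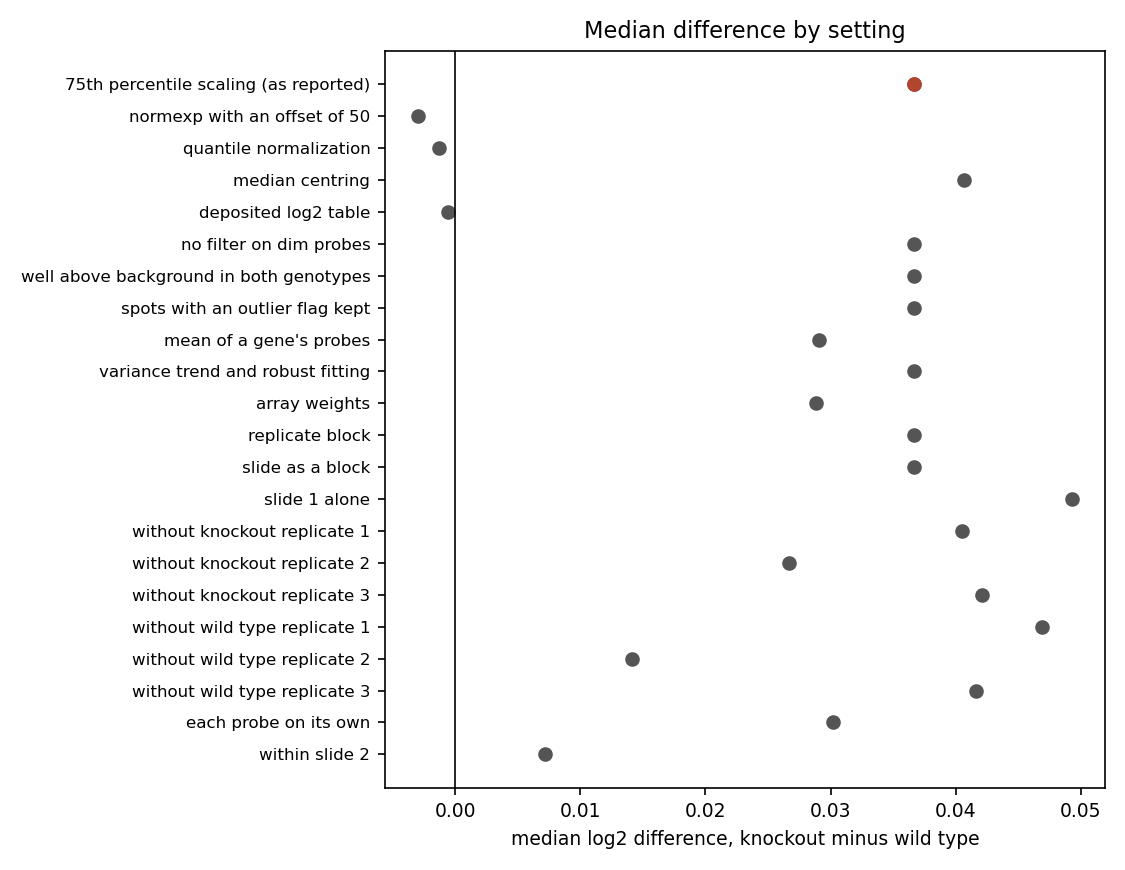
Median log2 difference of the ribosomal protein genes (x axis) under each processing setting (y axis), with the reported value at the top. It is 0.037 as reported, and it lies just below 0 with normexp, quantile normalization and the deposited table.

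Genes working with the ribosome were examined by lists, and p-values here are limma's, adjusted over all genes. Beside the counts below, 2.46% of all genes were called in either direction. Among 93 ribosome biogenesis factors 0 were called, with a median of -0.0019. Tsr1, needed for small-subunit maturation, came closest at -0.37 (adjusted p = 0.054, 0.0313 without wild-type replicate 2, and 0.154 at a difference of -0.18 with the mean of its probes), and Rrp12, another maturation factor, differed by 0.24 (0.060). Among 39 initiation factors 0 were called (median -0.0020), with Eif1b at -0.19 (0.058) and Eif2b1 at -0.22 (0.080). Among 13 elongation and release factors 0 were called (median 0.042), and Eef2k, the kinase that inhibits eEF2, was at 0.30 (0.091) and Eef1d at 0.14 (0.194), or -0.036 with the mean of its probes. For 20 genes of mTOR and TOP control 0 were called (median -0.016). Mlst8, a subunit of the mTOR complexes, was at -0.21 (0.066, and 0.0467 without wild-type replicate 2), and Larp4, which binds mRNA tails, at -0.15 (0.183). For 13 genes of the 5S particle and the p53 response 0 were called (median -0.0099), with Zmat3 at -0.20 (0.092) and Rrs1 at -0.27 (0.094). Of 10 ribosome-linked genes outside the name rule 0 were called (median -0.0050), with Rps19bp1 at -0.13 (0.179).

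Of 78 mitochondrial ribosomal protein genes 1 was called, where 2.46% of all genes were called in either direction. Mrps12, a protein of the small mitochondrial subunit, had levels of 3.58, 3.59 and 3.55 in knockout testes, against 3.25, 3.19 and 3.22 in wild-type testes. The groups did not overlap, and it rose by 0.35 (SE 0.039; limma adjusted p = 0.034). The other genes of the list did not pass, and the list median was 0.011. The call of Mrps12 was lost, with adjusted p-values of 0.0931 to 0.151, without any 1 of the knockout arrays or without wild-type replicate 1.

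Checks on the mutation and the tissue used the same fit. Prss37 had levels of 5.39, 5.51 and 5.47 in knockout testes, against 6.17, 6.06 and 6.27 in wild-type testes. The groups did not overlap, and it fell by 0.71 (SE 0.067, 1.63-fold; limma adjusted p = 0.024). That call was lost, with adjusted p-values of 0.0699 to 0.127, without any 1 of the knockout arrays or without wild-type replicate 1, and whether the probe lies in the deleted part is not given in the sources used here.

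All tested germ cell markers were well above background on all 6 arrays, and none was called. Spermatogonial markers (6 tested) had a median of -0.087, and 3 of the 6 were above 0, the highest at 0.086. Array means of the 6 were -0.94 to -0.89 in knockout testes, against -0.79 to -0.75 in wild-type testes. The smallest p-values were those of the meiotic entry gene Stra8 at -0.42 (adjusted p = 0.058) and Uchl1 at -0.19 (0.111). Without wild-type replicate 2 these adjusted p-values were 0.0448 and 0.0483. Spermatocyte markers (7) had a median of 0.029, with Spag6 at 0.29 (0.065, and 0.0476 without wild-type replicate 2) and the meiotic recombinase Dmc1 at -0.18 (0.079). Round spermatid markers (5) had a median of 0.052, with Spaca1 at 0.15 (0.148) and Crem at 0.12 (0.159). Elongating spermatid markers (5) had a median of 0.092, with Odf1 at 0.29 (0.130) and Akap4 at 0.13 (0.359). After quantile normalization the round and elongating spermatid medians were 0.020 and 0.014, and with normexp they were 0.051 and 0.030.

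Among somatic lists, macrophage markers had the highest median, 0.27. All 6 were above 0 and 0 were called, with Cd163 at 0.36 (adjusted p = 0.072) and Csf1r at 0.16 (0.152). Cd163 was dim, with levels of -4.09, -4.32 and -4.23 in knockout testes, against -4.55, -4.48 and -4.69 in wild-type testes. With normexp Cd163 differed by 0.21. Array means of the 6 macrophage markers were -1.03 to -0.84 in knockout testes, against -1.32 to -1.17 in wild-type testes. For 5 Sertoli genes the median was 0.022 (Rhox5 at 0.26, Wt1 at 0.12). For 5 Leydig genes it was -0.037 (Cyp11a1 at -0.25, Star at -0.23), and 2 of the 5 were above 0, the highest at 0.077. Medians were -0.032 for 3 peritubular genes (Acta2 at -0.17, Cnn1 at 0.058) and 0.064 for 2 endothelial genes (Tek at 0.13, Cdh5 at -0.0042). In all of these lists 0 genes were called. Star differed by 0.085 within slide 1 and -0.85 within slide 2, and leaving out 1 array gave -0.49 (without wild-type replicate 2) to -0.021 (without wild-type replicate 3), while Cyp11a1 differed by -0.83 with the mean of its probes. The 2 erythroid genes tested had a median of 0.14 and differed in sign. Alas2, the first enzyme of haem synthesis in red cells, was called, higher by 0.53 (0.039), while the other differed by -0.25 and was not called. Its call was lost, with adjusted p-values of 0.0504 to 0.151, without any 1 array other than wild-type replicate 2. Whether these shifts touch the ribosomal protein values was not tested.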

How the data were processed

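The authors deposited the scanner's spot intensities, 1 text file per array. Per the file headers these came from Feature Extraction version 10.7.3.1 (the submitters' processing notes give 10.7), which had already subtracted background from the processed signal. A log2 table of the same arrays was also deposited by the authors, with its normalization not given in the sources used here, and served only as an alternative. Spots with outlier flags were dropped (86 to 159 per array), spots of a probe were averaged, and log2 processed signals were scaled by each array's 75th percentile (1550.0 to 1706.9). Between 69.18% and 71.44% of spots were well above background and 0 were saturated. Probes entered the test if all unflagged arrays of 1 genotype or both were well above background and each genotype kept at least 2 values. The brightest of a gene's tested probes stood for it. Probe names were updated through RefSeq accessions for 118 of the 141 member probes and by symbol for 23. Differences were tested with limma 3.58.1 in R 4.3.3, on all 6 arrays without a block, with Benjamini-Hochberg adjustment over all genes. The fit was tested on simulated data. Replicates 1 and 2 of each genotype shared slide and scan 1, and replicate 3 slide and scan 2.

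Paralogue to parent ratios were tested by exact permutation over the 20 splits of the arrays. The limma p-values set a difference against the spread between these samples, and the permutation p-values rank it among the 20 splits. Named genes were paralogues with parents, stalk proteins and Rpsa, called members, the 6 of smallest p in each direction, members with discordant probes, X-linked members, leading genes of each list, and Rack1, Fau and Prss37. Some genes that this rule names are counted but not reported here. The members and lists were chosen with earlier results of these data known. Alternatives covered background correction, scaling, the filter on dim probes, flags, probes, variance models, slide, replicates and threshold. Samples with the same replicate number deviated with correlations of -0.028, -0.027 and 0.164. Between knockout and wild-type samples of unlike numbers they were -0.137 to 0.14, so the numbers were not taken as pairs. The value of 0.164 is that of replicate 3, whose samples share slide 2.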

Additional observations from a re-analysis of the deposited data

How the results depend on the processing

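At an adjusted p under 0.05, 0 ribosomal protein genes were called in either direction under every alternative run. With the settings as reported 0 were called at an adjusted p under 0.1, tried with those settings alone, and 2 were higher at an unadjusted p under 0.05. The median difference of 0.037 and the 66 members above 0 changed with some settings for normalization and not with others. They were -0.0030 and 39 with normexp, which included quantile normalization, and -0.0013 and 39 with quantile normalization alone. The deposited table gave -0.0006 and 40, but median centring gave 0.0407 and 68. Within slide 2 the median was 0.0072. With each probe on its own 103 of 133 probes were above 0, a count over more features. Leaving out 1 array at a time gave medians of 0.0141 to 0.0469 and 55 to 74 members above 0, the lowest of each without wild-type replicate 2. With replicate number as a block the median was 0.0367 and 0 members were called. The ratio of Rpl22l1 to Rpl22 was -0.1009 with normexp and 0.0110 with the mean of probes, that of Rpl7l1 to Rpl7 was 0.0674 and that of Rpl36al to Rpl36a 0.0776 with normexp; the cause was not tested. Over 62 named genes no value past the threshold changed sign in any setting run.

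The calls outside the ribosomal proteins were less stable. Prss37, Mrps12 and Alas2 kept their direction, but their adjusted p-values were 0.0929, 0.119 and 0.127 when dim probes were kept, 0.127, 0.133 and 0.133 with the replicate block, and 0.114, 0.13 and 0.145 on slide 1 alone. Mrps12 and Alas2 had 0.0572 and 0.0624 with slide as a block. In the translation and ribosome biogenesis lists (262 genes) 1 gene was called higher and 0 lower, against 230 and 237 of all 18975 genes. No filter, the replicate block, the slide block and slide 1 alone each gave 0 higher, there and in the marker lists (46 genes). In the marker lists 1 gene was higher and 0 lower as reported. Normexp gave 2 lower in the translation lists and 2 lower in the marker lists, against 252 higher and 232 lower over all genes. The filter on both genotypes gave 1 lower in the translation lists, against 287 higher and 284 lower over all genes. The variance trend with robust fitting gave 2 higher and 8 lower in the translation lists, and 3 higher and 1 lower in the marker lists. Over all genes it gave 691 higher and 579 lower. Array weights gave 6 higher and 10 lower in the translation lists, and 5 higher and 3 lower in the marker lists. Over all 18975 genes they gave 1217 higher and 1060 lower. Leaving out 1 array gave 0 to 2 higher and 0 to 3 lower in the translation lists, and 0 to 2 higher and 0 to 2 lower in the marker lists. The matching counts over all genes are given next.

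Over all genes, against 230 higher and 237 lower, no filter gave 2 and 6, the replicate block 0 and 2, the slide block 30 and 49, slide 1 alone 5 and 16, the mean of probes 125 and 150, the variance trend with robust fitting 691 and 579, and array weights 1217 and 1060. Leaving out 1 array gave 0 to 463 higher and 2 to 358 lower. The number of arrays limits the precision of all of these.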
